A study of Mus musculus with 12 samples.

Results

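The 9 genes Vwf, Itga2b, Pf4, Gp1bb, Gp9, Selp, Itgb3, Clu and Cd9, which are used to describe platelet-biased hematopoietic stem cells (HSCs) and the megakaryocytes and platelets that arise from them, were followed in WT and Pon2-/- HSCs. They were chosen by name, through the symbols of their Ensembl identifiers, and make up 9 of the 49585 genes in each count table. The study sorted bone marrow cells of 6 WT and 6 Pon2-/- C57BL/6J mice aged 10 to 14 weeks, 1 sample per mouse, to ask how the loss of the antioxidative enzyme Pon2 changes the transcriptome of HSCs. WT mice came from a commercial breeder, and Pon2-/- mice carry a β-geo gene trap vector with flanking loxP sites in an intron of Pon2, an insertion that lowers Pon2 rather than removing the gene. The sorted cells were Lin-, Sca1+, ckit+, CD135- and CD150+, a gate that holds long-term HSCs (LT-HSCs) together with MPP2 cells, and each mouse gave 8 wells of 10 cells for Smart-seq2 libraries. The groups received no treatment.

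Platelets are shed by megakaryocytes, and a part of the HSC pool carries RNA of this lineage before any cell has matured. MPP2 cells are multipotent progenitors known for megakaryocyte and erythroid output, and Vwf marks the HSCs that favor platelets. The products of the 9 genes fall into adhesion receptors of the platelet surface (Itga2b and Itgb3, which pair as the fibrinogen receptor, and Gp1bb and Gp9, which are subunits of the von Willebrand factor receptor), cargo of platelet granules (Vwf, Selp, Pf4 and Clu) and a tetraspanin of the membrane (Cd9).

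Transcription of megakaryocyte genes is known to rest on GATA and ETS family factors. The promoter windows of 3 receptor genes and 1 granule gene are shown, so that these letters can be seen beside the expression data. Each window holds 250 bases before and 50 after the RefSeq start of the gene (GRCm38.p6), and capitals mark matches of GATAA or GATAG (GATA) and of AGGAAG or CGGAAG (ETS) on either strand. Itga2b is at chr11:102469834-102470133 (- strand), Gp1bb at chr16:18622354-18622653 (- strand), Gp9 at chr6:87777820-87778119 (+ strand) and Pf4 at chr5:90772185-90772484 (+ strand).
Itga2b: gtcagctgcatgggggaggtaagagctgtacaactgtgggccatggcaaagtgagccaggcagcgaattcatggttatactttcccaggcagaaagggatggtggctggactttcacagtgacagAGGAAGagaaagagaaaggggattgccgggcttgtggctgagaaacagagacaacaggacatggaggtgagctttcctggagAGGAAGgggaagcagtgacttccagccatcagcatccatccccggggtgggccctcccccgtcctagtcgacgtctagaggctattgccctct
Gp1bb: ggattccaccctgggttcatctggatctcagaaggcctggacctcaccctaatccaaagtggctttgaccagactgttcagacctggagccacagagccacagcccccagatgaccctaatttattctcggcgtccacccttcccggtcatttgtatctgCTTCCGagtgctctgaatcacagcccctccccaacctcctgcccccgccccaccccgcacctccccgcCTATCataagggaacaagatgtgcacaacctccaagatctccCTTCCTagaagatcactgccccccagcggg
Gp9: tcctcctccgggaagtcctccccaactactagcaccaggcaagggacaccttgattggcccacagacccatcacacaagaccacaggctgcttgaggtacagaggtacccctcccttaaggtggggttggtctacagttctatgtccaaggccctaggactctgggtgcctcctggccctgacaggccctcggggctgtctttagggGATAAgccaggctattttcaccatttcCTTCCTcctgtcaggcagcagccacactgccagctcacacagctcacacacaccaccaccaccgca
Pf4: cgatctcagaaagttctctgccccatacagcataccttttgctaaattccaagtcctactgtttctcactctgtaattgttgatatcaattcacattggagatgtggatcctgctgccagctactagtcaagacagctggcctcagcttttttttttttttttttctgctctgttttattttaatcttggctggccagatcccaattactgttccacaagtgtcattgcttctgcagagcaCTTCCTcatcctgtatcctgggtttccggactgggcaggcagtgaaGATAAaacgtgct
A window was found for 6 of the 9 genes, and Vwf, Itgb3 and Clu had none. All 6 windows held an ETS match, against 46.5% of all 32851 windows of the same length, and 3 (Gp1bb, Gp9 and Pf4) held a GATA match, against 41.6%. The same 3 windows held both, against 18.2% of all windows. These short words are common, and a match describes letters only.

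The samples held 12967791 to 24228280 counts and 13941 to 15656 genes with a count. Pon2 itself was 113 ± 49.3 CPM for the WT mice against 25.7 ± 12.2 CPM for the Pon2-/- mice (SD, n = 6 per genotype), with no overlap between the genotypes. EdgeR did not call Pon2 (log2 fold change -2.13, adjusted p = 0.586), while DESeq2 did (adjusted p = 0.0103). Levels are given as CPM, the counts of a gene per 1000000 counts after TMM scaling of the libraries. All 8 markers of HSCs and the sort had a count in each sample, while Flt3, which encodes the CD135 used for exclusion, also had a count in every sample. Cd48, which separates MPP2 cells from LT-HSCs within the gate, was 41.4 ± 24.5 CPM for the WT mice against 132.6 ± 52.1 CPM for the Pon2-/- mice (SD, n = 6 per genotype). Its edgeR log2 fold change was 1.68 (unadjusted p = 0.0167, adjusted p = 0.9999). A two-sided exact permutation test over the mice gave p = 0.00433 (adjusted p = 0.446). The part of Cd48 in the values below was not tested.

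Across the 9 genes edgeR made no call between the genotypes. With edgeR's quasi-likelihood test, 8 of the 9 genes passed the filter on low counts and 0 were called at a false discovery rate below 0.05 with an absolute log2 fold change above 1, where 0.203% of the 11848 genes tested were called. At an unadjusted p below 0.05, 1 of the 8 genes passed (Clu, lower in Pon2-/- HSCs), where 3.13% of all genes tested passed (1.43% lower and 1.7% higher in Pon2-/- HSCs). The exact permutation test gave 1 of the 9 genes a p below 0.05, again Clu, where it did so for 5.87% of all genes tested. DESeq2 called 1 of the 9 (Gp1bb), where it called 1.79% of the 16998 genes it gave an adjusted p, and the same gene without Cook's cutoff, where it called 4.2%. The log2 fold change was above 0 for 4 of the 8 genes, as for 49.2% of all genes tested, and the median was -0.013 beside -0.0092. For none of the 9 genes did the 6 samples of one genotype all lie above those of the other, a pattern that 0.633% of all genes tested showed. The CPM of the 9 genes summed to 452.3 ± 65.1 in WT and 451.9 ± 69.3 in Pon2-/- HSCs (SD, n = 6 each). Cd9 alone gave 197.6 and 229.1 CPM of these means, so the sums say little of the genes at lower levels. In these bulk samples fewer cells that use a gene and less RNA of it per cell cannot be told apart.

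**Figure D1:**
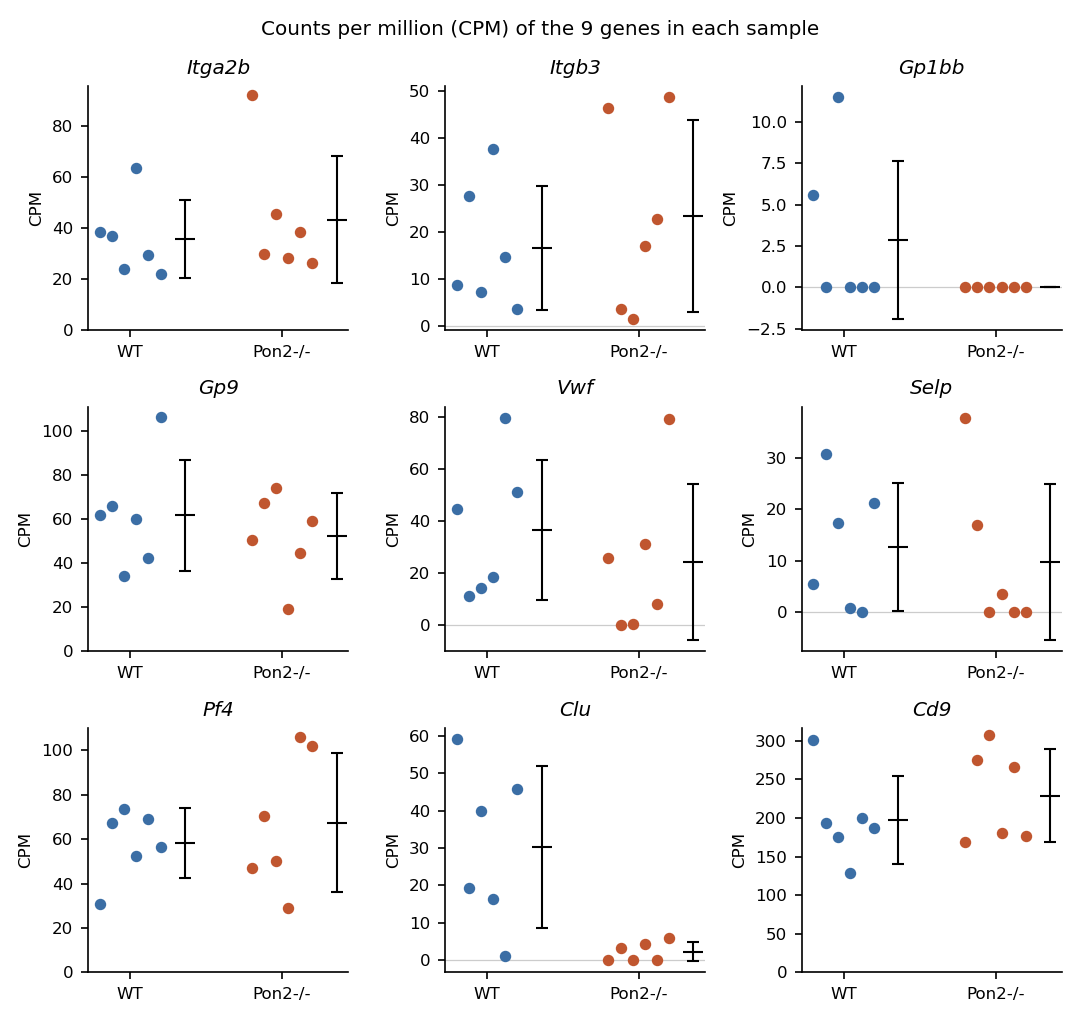
CPM of the 9 genes (y axis of each panel) in the 6 WT (blue) and 6 Pon2-/- (orange) samples, drawn from replicate 1 on the left to 6 on the right within each genotype, with the mean and SD beside them. The genotypes overlap in every panel, and Clu lies at or below 5.95 CPM in all Pon2-/- samples.

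The level per length differed widely among the 9 genes. Over the 12 samples, Cd9 was at 104.4 CPM per kb of exon, Pf4 at 87.1 and Gp9 at 65.0 CPM per kb, levels above those of 94.99%, 93.9% and 91.5% of the genes tested. Itga2b followed at 7.25 CPM per kb, near the middle of all genes tested (49.5% lay below). Clu (4.72), Itgb3 (3.39), Selp (2.53) and Vwf (1.89 CPM per kb) lay lower, and Gp1bb was last at 0.683 CPM per kb. The value of Gp1bb was taken over all its exon bases, 92.9% of which are shared with other genes on the same strand. Its level per length and its last place are therefore uncertain. The spread between mice decides how firmly this order holds: the coefficient of variation of the CPM over 12 samples was 27.4% for Cd9, 38.3% for Pf4 and 38.5% for Gp9, but 92.1% for Vwf, 120.1% for Selp and 127.6% for Clu. Neighbors from Cd9 to Gp9 and from Clu to Vwf therefore did not differ beyond their spread. The median coefficient of variation was 67.2% over the 8 genes tested and 56.8% over all genes tested.

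Of the receptors, Itga2b (integrin alpha IIb, CD41, at 11:102453297-102470122, - strand, GRCm38) was detected in every mouse. Its CPM ranged from 21.9 to 63.5 with a median of 33.2 in WT HSCs and from 26.2 to 91.9 with a median of 34.2 in Pon2-/- HSCs. The ranges overlap, and a single Pon2-/- mouse, replicate 1, stood above all others. The fitted log2 fold change was 0.28 (SE 0.42, 95% confidence interval -0.63 to 1.19, edgeR adjusted p = 0.9999), and it was -0.09 without that mouse. Its partner Itgb3 (integrin beta 3, at 11:104608000-104670476, + strand) was more uneven, at 3.74 to 37.7 CPM (median 11.8) in WT and 1.48 to 48.7 CPM (median 19.99) in Pon2-/- HSCs. Pon2-/- replicates 1 and 6 held the highest values, but replicates 2 and 3 lay below every WT mouse. For Itgb3 the log2 fold change was 0.49 (SE 0.86, interval -1.35 to 2.33, edgeR adjusted p = 0.9999), and it lay between 0.13 and 0.90 when 1 mouse was left out.

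Gp9 (6:87778072-87779768, + strand), the small subunit of the von Willebrand factor receptor, was among the evenly expressed genes. It ranged from 34.1 to 106.7 CPM (median 61.1) in WT and from 19.3 to 74.4 CPM (median 54.9) in Pon2-/- HSCs. The highest value came from a WT mouse and the lowest from a Pon2-/- mouse, with the other samples interleaved. In the fit it had a log2 fold change of -0.24 (SE 0.36, interval -1.01 to 0.54, edgeR adjusted p = 0.9999).

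Gp1bb (16:18620317-18622403, - strand), which encodes another subunit of that receptor, was found in 2 mice alone. WT replicate 1 had 132 counts and WT replicate 3 had 285, while the other 4 WT and all 6 Pon2-/- samples had none. With 3 counts over all Pon2-/- samples as the limit that 0 allows, the 417 counts of these 2 WT mice lie 139-fold above it. Without WT replicate 1 or 3 the counts lie 95-fold or 44-fold above it. This limit covers counting error alone and sets no bound on the difference between mice of the genotypes. The filter removed the gene from edgeR's test, and DESeq2 called it (adjusted p = 2.8e-12), while the exact permutation test of log2 CPM gave p = 0.455 (two-sided, over all ways to assign 6 of the 12 mice to a genotype) with 4 WT mice also at 0. Of its exon bases, 92.9% are shared with other annotated genes on the same strand, among them Sept5, so its counts are uncertain.

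Of the granule proteins, Vwf (6:125546774-125686679, + strand), the ligand of the receptor above, varied strongly between mice. It ranged from 11.0 to 79.7 CPM (median 31.6) in WT and from 0.0431 to 79.4 CPM (median 16.9) in Pon2-/- HSCs. No WT mouse was near 0, whereas Pon2-/- replicates 2, 3 and 5 were below every WT mouse and replicate 6 came within 1 CPM of the highest WT value. The log2 fold change was -0.60 (SE 1.12, interval -3.00 to 1.80, edgeR adjusted p = 0.9999). It was -2.28 with limma voom weights, and ranged from -1.49 without Pon2-/- replicate 6 to -0.21 without WT replicate 5. By exact permutation the difference of mean log2 CPM had p = 0.206. The interval therefore leaves room for a large change in either direction.

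Selp (P-selectin, an adhesion molecule stored in alpha granules, at 1:164115264-164150026, + strand) had no count in 4 mice. Of its exon bases 14.1% overlap noncoding genes of the opposite strand, as do 10.7% of those of Cd9. It ranged from 0 to 30.8 CPM (median 11.4) in WT and from 0 to 37.8 CPM (median 1.73) in Pon2-/- HSCs. A count was found in 5 of 6 WT and 3 of 6 Pon2-/- mice, and the highest value of all came from a Pon2-/- mouse. For Selp the log2 fold change was -0.37 (SE 1.81, interval -4.27 to 3.52, edgeR adjusted p = 0.9999), and it was 0.12 without WT replicate 2, -1.62 without Pon2-/- replicate 1 and -2.92 with limma voom weights. Counts of the Y-linked genes Ddx3y, Eif2s3y, Kdm5d and Uty were present in 7 mice (3 WT, 4 Pon2-/-) and at 0 or 1 in 5 (3 WT, 2 Pon2-/-). Selp averaged 7.31 and 17.9 CPM in WT mice with and without them and 0.867 and 27.4 CPM in Pon2-/- mice with and without them. In the edgeR fit with the mean log2 CPM of these genes as a covariate, Selp had a log2 fold change of -1.38 (SE 1.91). Without the covariate it was -0.37, and the change between these estimates was not tested.

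Pf4 (platelet factor 4, a chemokine of alpha granules, at 5:90772435-90773383, + strand) was high and present in all mice. It ranged from 31.0 to 73.5 CPM (median 61.7) in WT and from 28.8 to 106.1 CPM (median 60.2) in Pon2-/- HSCs. Pon2-/- replicates 5 and 6 exceeded every WT mouse, and the other 4 lay inside or just below the WT range. Pf4 had a log2 fold change of 0.21 (SE 0.35, interval -0.53 to 0.95, edgeR adjusted p = 0.9999).

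Clu (clusterin, a secreted chaperone that is also stored in platelet granules and is known to be higher in aged HSCs, at 14:65968483-65981547, + strand) had the largest fitted change of the 8 genes tested with edgeR. WT replicates 1 to 6 had 59.1, 19.2, 39.9, 16.4, 1.02 and 45.8 CPM. Pon2-/- replicates 1 to 6 had 0, 3.28, 0, 4.23, 0 and 5.95 CPM. All WT mice but replicate 5 therefore lay above all Pon2-/- mice, 3 of which had no count. The mean was 30.2 ± 21.6 CPM for the WT mice against 2.24 ± 2.60 CPM for the Pon2-/- mice (SD, n = 6 per genotype), from 3715 and 236 counts. The log2 fold change was -3.75 (SE 1.56, interval -7.10 to -0.40). It was -6.04 with limma voom weights. The adjusted p of edgeR over all genes tested was 0.9999, and adjusted p-values lay between 0.129 and 1.0 over the alternatives, so that the gene was not called. The exact permutation test gave p = 0.0152 and an adjusted p of 0.685. Without WT replicate 5 the log2 fold change was -4.01 (edgeR adjusted p = 0.9999). The genotypes then no longer overlapped, which follows from leaving out the only WT mouse within the Pon2-/- range. The unadjusted edgeR p of 0.0308 rose to 0.0615, 0.0501 and 0.0525 without WT replicate 1, 3 or 6, in that order. It stayed below 0.05 without any other single mouse. With the mean log2 CPM of the Y-linked genes as a covariate it was 0.05003.

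Cd9 (6:125460266-125494791, - strand), a tetraspanin of the platelet membrane that also marks HSCs, was the most even of the 9 genes. It ranged from 128.2 to 300.9 CPM (median 190.1) in WT and from 169.2 to 307.6 CPM (median 222.8) in Pon2-/- HSCs. The ranges of the genotypes overlap over most of their length. Cd9 had a log2 fold change of 0.21 (SE 0.22, interval -0.25 to 0.68, edgeR adjusted p = 0.9999). Cd9 and Pf4 were the 2 genes whose interval lay within a change of 1 on the log2 scale in either direction.

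**Figure D2:**
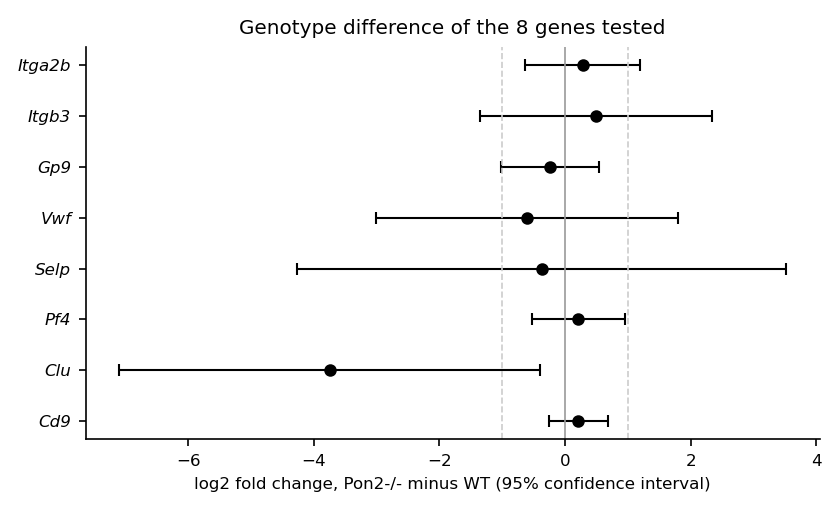
Log2 fold change of the 8 genes tested (x axis, Pon2-/- minus WT) with the 95% confidence interval of the edgeR fit, with dashed lines at -1 and 1. The interval of Clu alone leaves out 0, before any adjustment, and those of Vwf and Selp reach far to both sides.

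Markers of mature megakaryocytes and platelets were examined beside these genes. None of the 8 markers had a count in every sample and 2 passed the filter. Tubb1, the beta tubulin of platelets, had counts in WT replicate 6 alone (11.2 CPM), and Gp6, the collagen receptor, did not exceed 0.0849 CPM in any sample. By contrast, Gp5 had a count in 11 samples (mean over the 12 samples 23.2 CPM) and Treml1 in 9 (mean 11.7 CPM). The summed CPM of the 8 markers were 30.6 to 83.0 in WT and 0.120 to 79.4 in Pon2-/- HSCs. The lowest sum came from Pon2-/- replicate 1, which held the highest Itga2b and Selp of all mice. Of the 8, Gp5 (log2 fold change -0.35, edgeR adjusted p = 0.9999) and Treml1 (-1.03, edgeR adjusted p = 0.9999) could be tested. The part of mature cells in the values of the 9 genes was not tested.

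**Figure D3:**
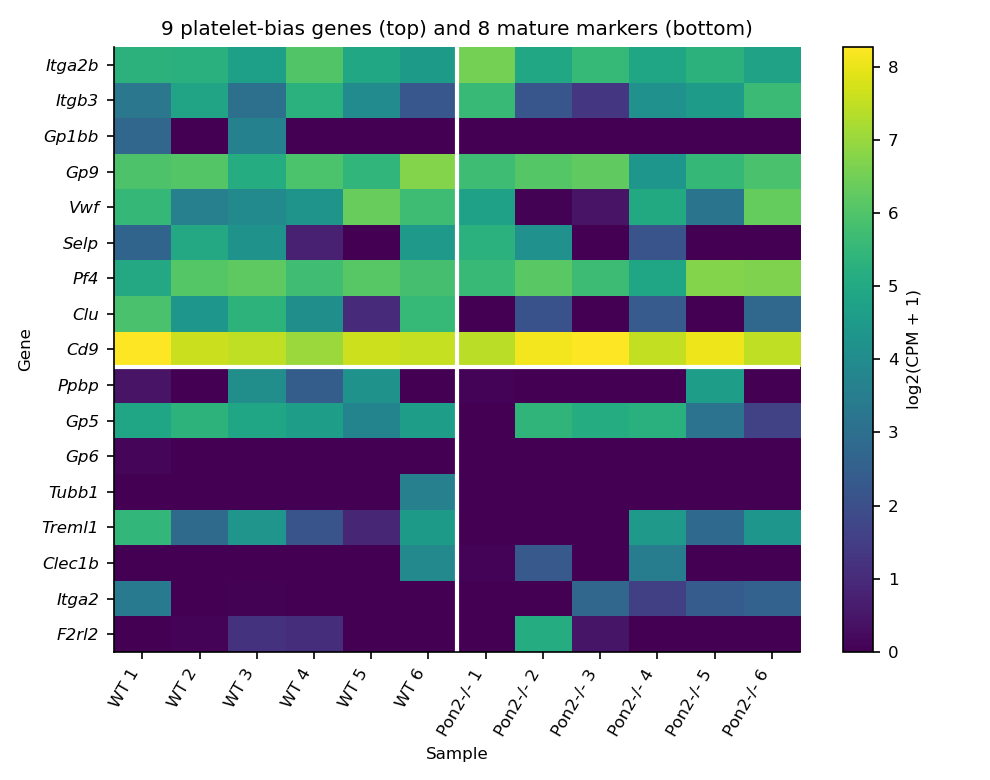
Heat map of log2(CPM + 1) for the 9 genes (upper block) and 8 markers of mature megakaryocytes and platelets (lower block), with the 12 samples in columns. Cd9, Pf4, Gp9 and Itga2b are present in every column, while Gp6 and Tubb1 are dark in nearly all of them.

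Other genes of the lineage, and other genes known to be higher in aged HSCs, were read from the same fit. In 5 lists of 58 further genes, 45 were tested with edgeR and 0 were called or passed an unadjusted p below 0.05, while DESeq2 called 0 of the 58, and 1 (Tubb1) without Cook's cutoff. Over all genes tested these shares were 0.203% called and 3.13% at an unadjusted p below 0.05 with edgeR, and 1.79% and 4.2% called with DESeq2 with and without the cutoff, so that few or no calls are the background for lists of this size. The log2 fold change was above 0 for 22 and below 0 for 23, with a median of -0.01 (all genes tested, -0.0092).

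Among 14 platelet and megakaryocyte receptors, 8 were tested (5 above 0 and 3 below, median log2 fold change 0.05). Itgb1, the integrin beta 1 chain, had a log2 fold change of 0.04. P2rx1, an ATP-gated channel of platelets, had the smallest p of this list (log2 fold change -0.59, edgeR adjusted p = 0.9999). Among 10 genes of granule cargo and granule formation, 7 were tested (2 above 0 and 5 below, median -0.21). Srgn, the granule proteoglycan serglycin, was at 1438 ± 206.0 CPM for the WT mice against 1365 ± 137.0 CPM for the Pon2-/- mice (SD, n = 6 per genotype), Mmrn1, which encodes the factor V carrier multimerin, had a log2 fold change of -0.21, and Tgfb1 one of 1.26 (edgeR, adjusted p = 0.9999).

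Among 10 genes of the cytoskeleton and integrin activation, 8 were tested (5 above 0 and 3 below, median 0.12). Tln1 (talin) and Fermt3 (kindlin-3), which switch integrins to their active form, had log2 fold changes of 0.06 and 0.30. Vcl (vinculin) was at 10.6 ± 6.27 CPM for the WT mice against 2.86 ± 1.47 CPM for the Pon2-/- mice (SD, n = 6 per genotype), with a log2 fold change of -1.88 that did not pass (edgeR, adjusted p = 0.9999). All 12 transcription factors of the lineage were tested (7 above 0 and 5 below, median 0.12). Nfe2, which drives platelet release, had a log2 fold change of 0.19, Meis1 one of -0.18, and Fli1, an ETS factor, one of -0.34 (edgeR, adjusted p = 0.9999). Among 12 further genes known to be higher in aged HSCs, 10 were tested (3 above 0 and 7 below, median -0.36). Sult1a1, Aldh1a1 and Alcam had log2 fold changes of 0.02, -0.02 and -0.72, and the last, with the smallest p of this list, did not pass (edgeR, adjusted p = 0.9999).

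**Figure D4:**
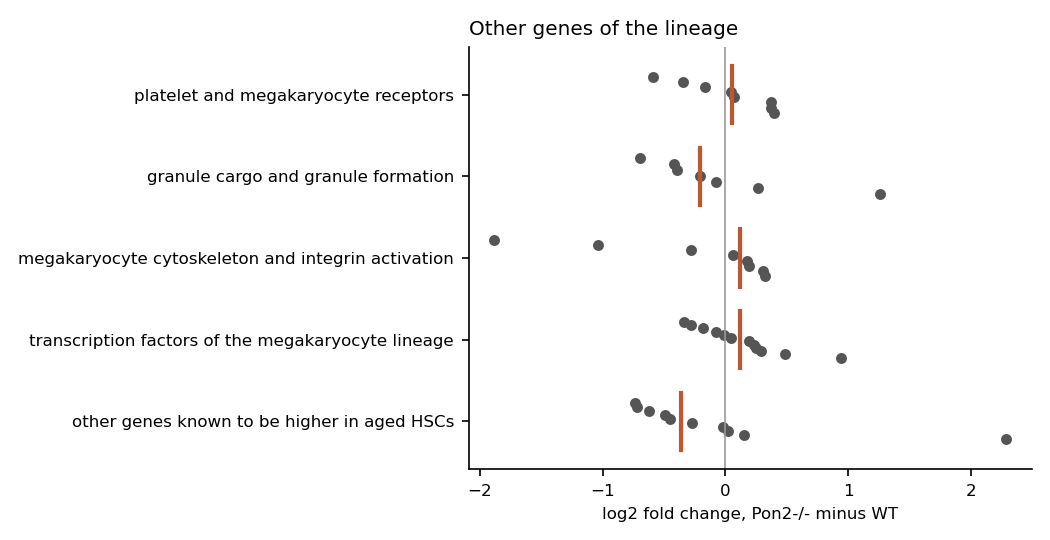
Log2 fold change (x axis, Pon2-/- minus WT) of each tested gene in 5 lists (rows), of the lineage or of genes known to be higher in aged HSCs, 1 point per gene, with the median of the list as an orange line. The medians lie between -0.36 and 0.12, and single genes reach from -1.88 to 2.29. The lowest median and the highest gene belong to the aged HSC list.

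Whether the 9 genes varied together from mouse to mouse was examined over the 28 pairs of the 8 genes tested. The median Pearson r of log2 CPM over the 12 samples was -0.05, and r was above 0 for 11 pairs and below 0 for 17. The highest r joined Itgb3 and Vwf (r = 0.59, permutation p = 0.0402, adjusted p = 0.563, Spearman rho = 0.34, p = 0.277), and it was -0.15 without the 2 samples farthest from the median of Itgb3, so that it rests on those samples. The lowest joined Itgb3 and Cd9 (r = -0.63, permutation p = 0.0287, adjusted p = 0.563, rho = -0.64, p = 0.0271), and it was -0.35 without the 2 farthest samples. No pair passed after adjustment over the 28 pairs. Within the genotypes, after subtraction of their means, these values were 0.67 and -0.66. Itga2b and Itgb3, whose products form 1 receptor, had an r of 0.37 (permutation p = 0.232, adjusted p = 0.923, rho = 0.24, p = 0.456), which was -0.12 without the 2 farthest samples.

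**Figure D5:**
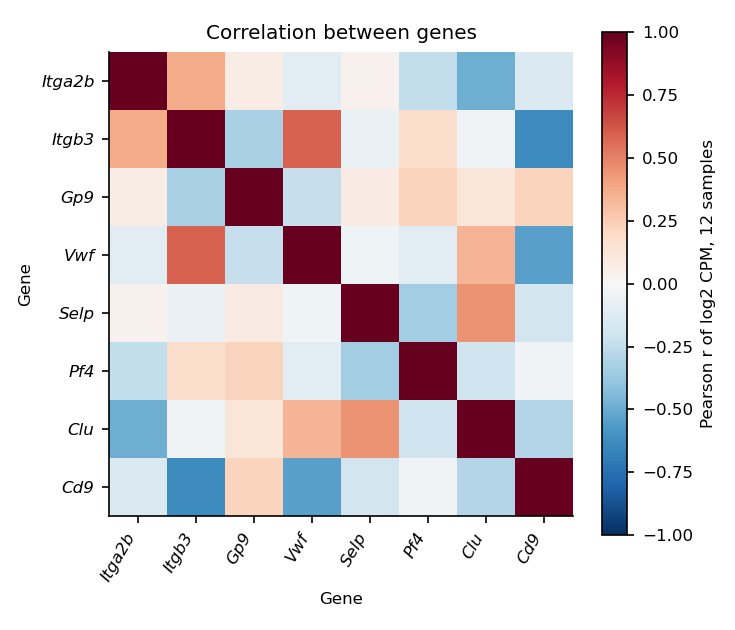
Pearson r of log2 CPM over the 12 samples for each pair of the 8 genes tested, from blue (-1) to red (1). No block of jointly varying genes stands out, and the strongest pairs are Itgb3 with Cd9 (-0.63) and Itgb3 with Vwf (0.59).

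Of all 11848 genes tested, those with a pattern most like that of Vwf were not among the 9, whose highest r with Vwf was 0.59. With so many genes and 12 samples this was likely in advance, so it does not show whether the 9 genes vary with Vwf. By Pearson r of log2 CPM over the 12 samples, the closest included Rdx (0.95), Gm28512 (0.95), Zfp248 (0.93) and Dock10 (0.91), and 53 genes had an r above 0.8. The Spearman rho of the named genes, in the same order, was lower at 0.84, 0.73, 0.57 and 0.51, and the 12 points include 2 Pon2-/- mice with almost no Vwf.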

How the data were processed

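Sorted bone marrow cells, a mixture of LT-HSCs and MPP2, were profiled by Smart-seq2 in 6 mice of each genotype. The authors trimmed reads with Trimmomatic (0.36), mapped them with STAR (2.5.3a) to GRCm38.p5 and deposited raw gene counts, 1 table per mouse, with 49585 genes and 1 row without a gene, which was dropped. How wells were combined and which strand setting was used are not given in the sources used here. Names came from GENCODE M21 (49326 identifiers matched without their version). Sequences came from RefSeq.

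The counts were fitted with edgeR (4.0.16, R 4.3.3): filterByExpr, TMM factors, a quasi-likelihood test of genotype alone, and Benjamini-Hochberg adjustment over 11848 genes. DESeq2 (1.42.0) and limma (3.58.1) were alternatives. Log2 CPM used a prior count of 2. Single genes were compared by a two-sided exact permutation test over all assignments of 6 of the 12 mice to a genotype (smallest p 0.00216) in NumPy (2.4.6), and correlations by 100000 permutations. The scripts were tested on simulated data. Totals of 12967791 to 24228280 counts put 3 counts at 0.124 to 0.231 CPM. Mice were the replicates.

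The genes and lists were chosen with earlier results of these data known. Named list genes were the 2 with the highest mean CPM, the one with the smallest p and any called. Some genes that the naming rules chose are not reported here. Gp5, Treml1, Gp6 and Tubb1 were named as markers. The following choices were settled after values were seen. CPM were first computed with TMM factors on the totals of all genes and then switched to the totals of the genes tested, after the number of genes without overlap was seen to differ by 1 from an earlier analysis of these data, whose scaling was then followed. The switch moved no value of the 9 genes by more than 2.77%, the genes without overlap from 74 to 75, and those with a permutation p below 0.05 from 697 to 696. The share called by DESeq2 was taken over 16998 genes with an adjusted p, in place of 22153 with a p.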

Additional observations from a re-analysis of the deposited data

Results flagged for a closer look

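In 19 groups of 6 samples, the CPM of the 9 genes and of Pon2 were searched for a sample far from the rest by Dixon's criterion, which chance alone meets in about 1 of 20 groups, and 2 were found. Itga2b was at 91.9 CPM in Pon2-/- replicate 1, while the other Pon2-/- mice had 26.2 to 45.3 CPM. Pon2 was at 1.16 CPM in Pon2-/- replicate 5, while the other Pon2-/- mice had 28.4 to 33.1 CPM.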

How the results depend on the processing

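The count of all genes called, 24, was 8 with no filter beyond 1 read, 305 with DESeq2, 950 with DESeq2 without Cook's cutoff and 5 with the replicate block, and 20 to 28 when 1 mouse was left out. Of the 9 genes, 0 were called in all edgeR and limma fits and 1 (Gp1bb) with DESeq2, with and without Cook's cutoff (1 each). Of the listed genes, 1 (Tubb1) was called with DESeq2 without Cook's cutoff. Without WT replicate 5, the only WT mouse that overlapped in Clu, 1 of the 9 genes (Clu) had no overlap by construction. The range without 1 mouse was 0 to 1. Replicate numbers did not pair the mice: the deviations of same-numbered mice correlated by 0.00093 to 0.043, and 1 of 6 WT mice correlated best with its own number. With the block, the log2 fold change of Itgb3 was -0.033, that of Vwf -2.28, that of Selp -1.31 and that of Clu -5.19. Without 1 mouse, log2 fold changes turned sign for Itga2b (range -0.090 to 0.52) and Selp (-1.62 to 0.12), and so did the difference of mean log2 CPM for Itga2b (-0.025 to 0.41), Itgb3 (-0.30 to 0.69), Gp9 (-0.41 to 0.0057) and Pf4 (-0.050 to 0.34). None of the values that turned sign had passed a test, and the cause was not tested. CPM with TMM factors on the totals of all genes, added after values were seen, turned no sign and made no call among the 9 genes.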

Other observations

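Among the markers of other blood cells, Hbb-bt, an adult beta globin of red cells, was at 25.5 ± 13.2 CPM for the WT mice against 0.193 ± 0.449 CPM for the Pon2-/- mice (SD, n = 6 per genotype, edgeR log2 fold change -7.04, adjusted p = 0.265). The genotypes did not overlap, a pattern that 0.633% of all genes tested showed. Such a separation gives the smallest p that the exact permutation test can reach (p = 0.00216, adjusted p = 0.342). DESeq2 called Hbb-bt (adjusted p = 1.03e-06) while edgeR did not. Of the 9 erythroid markers, edgeR tested 5 and called 0, DESeq2 called 1, and 3 had no count in any sample. The log2 fold change was above 0 for 2 of the 5 tested (Klf1 and Epor) and below 0 for 3. The summed CPM of the 9 erythroid markers overlapped between the genotypes, so Hbb-bt does not stand for the list. The summed CPM of the 8 granulocyte and monocyte markers were 878.3 to 9744 in WT mice and 830.1 to 14867 in Pon2-/- HSCs (next highest 3897, highest in replicate 1), and those of the 7 B cell markers 25.5 to 466.7 and 69.3 to 10436. The last sum was mostly Ighm, at 10299 CPM in Pon2-/- replicate 3, and the next highest sum of a Pon2-/- mouse was 614.8 CPM. DESeq2 called 1 granulocyte and monocyte, 1 B cell and 1 T cell marker, and edgeR called 0 in each list. Over all genes DESeq2 called 1.79% and edgeR 0.203%, the shares to set beside these lists and the erythroid one. The granulocyte and monocyte marker called was Ctsg (DESeq2 adjusted p = 3.98e-14). It had counts in WT replicates 1 and 3 alone, and its exact permutation p was 0.455. The 7 T cell markers summed to 0.0424 to 39.7 and 18.8 to 57.7 CPM.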
